A study of Ovis aries with 9 samples.

Results

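The genes described here carry thyroid hormone into brain cells, hold it there, switch it on or off and read it out. They are 8 genes of the sheep hypothalamus, chosen by name for these roles: the membrane transporters SLC16A10 and SLCO1C1, the hormone-binding protein CRYM, the deiodinases DIO2 and DIO3, the nuclear receptors THRA and THRB, and the thyrotropin receptor TSHR. All 8 were found among the 21284 protein-coding genes of the table, with 20 of its 76682 matched mRNA transcripts. Their values were expression estimates in FPKM, fragments of a transcript scaled for its length and for the fragments of its library, and the FPKM of a gene is the sum over its transcripts. The RNA came from the hypothalamus of Dolang ewes that had been assigned to a stage by their oestrous behaviour and the state of the vulva. The 3 ewes at prepuberty were 120 days old, the 3 at puberty 130 days and the 3 at postpuberty 150 days, and each ewe gave 1 library from unsorted tissue. The study ran in autumn, from August to September, so the stages do not compare seasons. The sources name no allele or agent that set a group apart. Age and stage moved together in this design and cannot be told apart.

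The thyroid gland releases mostly thyroxine (T4), a precursor with little activity of its own, and the brain makes most of its active hormone, triiodothyronine (T3), locally. Transporters bring T4 and T3 across capillary walls and cell membranes, DIO2 removes an iodine from T4 to give T3, and DIO3 degrades both hormones. In seasonal breeders such as sheep, thyrotropin from the pars tuberalis of the pituitary acts through TSHR on tanycytes, the ependymal cells of the third ventricle wall, and sets the balance of DIO2 against DIO3 there. T3 then acts through the nuclear receptors encoded by THRA and THRB, which bind DNA together with retinoid X receptors.

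One library stood apart. In Puberty 2 the FPKM of all transcripts summed to 599726, against 359588 to 398109 in the others, and 10970 genes reached 0.5 FPKM, against 12985 to 13687. It listed 32 genes at 0 that had at least 10 FPKM in every other library, and no other library listed such a gene. Its Spearman correlation with the others was 0.678 to 0.729, against 0.849 to 0.954 among the remaining 8. The levels and stage differences of the 8 genes are therefore given with all 9 libraries and without Puberty 2. The labelled tissue was checked against its markers. GNRH1, the defining transcript of the neurons that drive reproduction, was listed at 0 in all libraries, and AGRP of the arcuate nucleus did not exceed 0.169 FPKM. A mean under 0.1 FPKM was found for 5 of the 16 hypothalamic neuron markers in the table, and NKX2-1 and SIM1, which mark hypothalamic territory, did not exceed 0.262 and 0.111 FPKM. Another 9 had a mean of at least 0.5 FPKM. Among these were POMC (2.09 to 22.4 FPKM), which the pituitary also makes, SST (4.27 to 107 FPKM), made widely in the brain, NPY (0.222 to 22.7 FPKM) and CARTPT (0.996 to 7.12 FPKM). CRH was at 0.392 to 7.14 FPKM in 8 libraries and at 118 in Prepuberty 1. AVP (0.551 to 10.4 FPKM), OXT (0.319 to 4.81 FPKM), TAC3 (0.156 to 3.49 FPKM) and HCRT (0.144 to 1.68 FPKM) were also listed above 0 in every library. The 16 markers summed to 40.0 to 159 FPKM at prepuberty, 49.4 to 86.7 at puberty and 28.1 to 142 at postpuberty. The 11 tanycyte and ependymal markers in the table summed to 91.8 to 291 FPKM at prepuberty, 129 to 237 at puberty and 106 to 315 at postpuberty, most of it VIM (53.3 to 272 FPKM), which other glia also make. Of the markers most particular to tanycytes, RAX did not exceed 0.0975 FPKM and GPR50 was listed at 0 in 7 of the 9 libraries. LHX2 was at 4.31 FPKM in Prepuberty 2 and 1.53 in Postpuberty 2 and did not exceed 0.389 in the others. PPP1R1B, which neurons also make, was at 10.1 to 44.3 FPKM and was higher throughout at puberty than at prepuberty, as were 2.32% of tested genes. The ependymal markers DYNLRB2 (5.34 to 17.2 FPKM) and CCDC153 (5.36 to 39.9 FPKM) were present in every library. FOXJ1, which directs the making of motile cilia, was at 0.382 to 11.8 FPKM, and TMEM212 was listed at 0 in 4 libraries and did not exceed 1.56 FPKM. Choroid plexus transcripts varied most, with a summed FPKM of 13.2 to 342 at prepuberty, 257 to 7655 at puberty and 39.6 to 732 at postpuberty over the 6 of 8 listed markers that were in the table. TTR, the hormone carrier of the choroid plexus, made up 7594 FPKM of that sum in Puberty 3. In whole tissue, fewer cells of a type and less RNA per cell cannot be told apart.

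THRA was by far the most abundant of the 8 genes, DIO3 and TSHR were barely detected, and the order of the mean levels was the same with 9 and with 8 libraries. Over the 8 libraries other than Puberty 2, the mean level was 10.2 FPKM for THRA, 2.51 for CRYM, 1.81 for DIO2, 1.01 for SLC16A10, 0.517 for SLCO1C1, 0.351 for THRB, 0.0925 for DIO3 and 0.0213 for TSHR. FPKM is divided by transcript length, so these levels can be compared between genes as far as the transcript models are complete. DIO3 has a model of 837 bases, and DIO3, THRB, TSHR and SLC16A10 were each measured through 1 transcript. Reads given to the 22600 assembled rows without a RefSeq identifier are not in the sums. How far this lowered any level, or moved a ratio between genes, was not tested. THRA exceeded CRYM in 9 of 9 libraries, by a mean of 1.90 ± 0.61 (SD, n = 9) in log2(FPKM + 1). SLC16A10 exceeded SLCO1C1 in 9 of 9, by 0.42 ± 0.19 on that scale. The other neighbours in the order did not keep it in every library: CRYM exceeded DIO2 in 6 of 9 (0.24 ± 0.58) and DIO2 exceeded SLC16A10 in 7 of 9 (0.51 ± 0.56). SLCO1C1 exceeded THRB in 6 of 9, THRB exceeded DIO3 in 6 of 9, and DIO3 exceeded TSHR in 7 of 9. Among all protein-coding genes, THRA lay between the 77.8th and the 84.0th percentile of FPKM in the 8 libraries and TSHR between the 8.59th and the 25.6th.

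**Figure D1:**
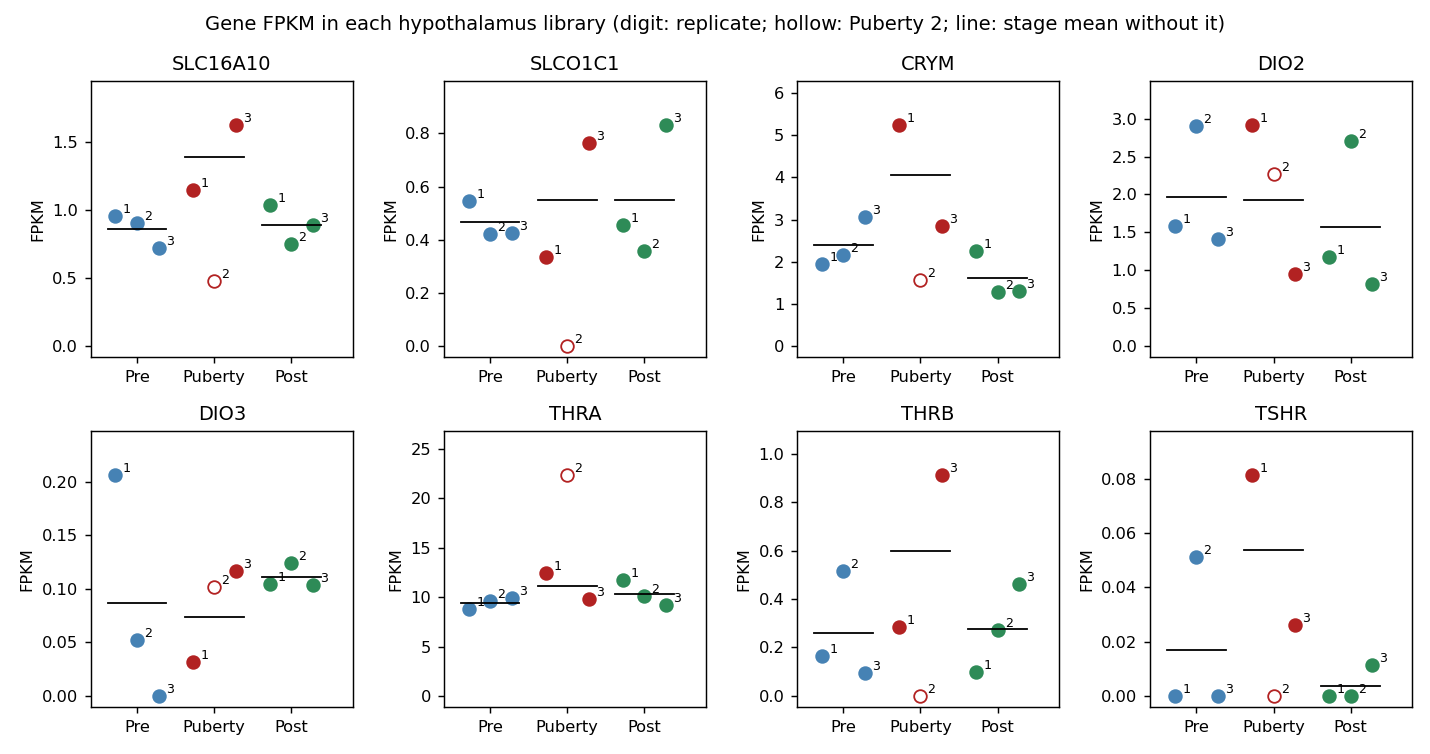
Gene FPKM of the 8 thyroid hormone genes in each library, with 1 panel per gene and its own axis from 0. Points are libraries at prepuberty, puberty and postpuberty with the replicate digit beside them, the hollow point is Puberty 2 and the line is the stage mean without it; THRA is near 10 FPKM in every library but Puberty 2 (22.4), while SLCO1C1, THRB and TSHR are listed at 0 in Puberty 2.

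SLC16A10 encodes MCT10, a transporter of T3 and of aromatic amino acids. It lies on chromosome 8 at 26481625 to 26599160 (ARS-UI_Ramb_v3.0, as for all positions here) and has a single transcript in the table, XM_004011485.5. Its FPKM was 0.959, 0.909 and 0.721 at prepuberty, 1.15, 0.480 and 1.62 at puberty, and 1.04, 0.753 and 0.889 at postpuberty. The pubertal libraries held both the highest value (Puberty 3) and the lowest (Puberty 2), and with all 9 libraries the stages overlapped. Without Puberty 2, both pubertal libraries lay above all 3 prepubertal and all 3 postpubertal ones. The difference of puberty from prepuberty was then 0.35 in log2(FPKM + 1) (95% interval -0.06 to 0.76, limma adjusted p = 1), and that of postpuberty from puberty was -0.33 (-0.74 to 0.08, limma adjusted p = 1). Neither interval left out 0. With all 9 libraries the corresponding differences were 0.13 (-0.42 to 0.68) and -0.10 (-0.65 to 0.45), and leaving out Puberty 3 instead turned them to -0.06 and 0.08. Puberty 3 also had the highest choroid plexus sum (7655 FPKM), whose part in the SLC16A10 values was not tested.

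SLCO1C1 encodes OATP1C1, which carries T4 and is known from brain capillaries and the choroid plexus. It lies on chromosome 3 at 194602915 to 194685796. Its FPKM was 0.545, 0.423 and 0.427 at prepuberty, 0.335, 0 and 0.762 at puberty, and 0.456, 0.359 and 0.830 at postpuberty. Puberty 2 listed it at 0, the highest values were those of Postpuberty 3 and Puberty 3, and the stages overlapped in every comparison. Of the 8 endothelial markers, 5 were lowest in Puberty 2 (PECAM1, FLT1, CDH5, SLC2A1 and ABCB1, the last at 0) and 3 were highest there, with CLDN5 alone at 624 FPKM of a sum of 709 against sums of 133 to 241 in the others. Their part in the SLCO1C1 value of Puberty 2 was not tested. Puberty 3 and Postpuberty 3 also had the highest choroid plexus sums (7655 and 732 FPKM), and the part of that tissue in the SLCO1C1 values was not tested. With all 9 libraries SLCO1C1 passed the level filter of 0.5 FPKM through its postpubertal mean only (0.548 FPKM, against 0.465 at prepuberty). A test there is of a gene admitted by the stage in which it was high, so its difference of puberty from prepuberty is given from the fit without a filter. It was -0.14 in log2(FPKM + 1) with all libraries (95% interval -0.60 to 0.33, limma adjusted p = 0.882) and 0.07 without Puberty 2 (-0.33 to 0.46, limma adjusted p = 1).

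The 2 transporters kept their order but not their ratio. SLC16A10 was 1.07 to 3.43 times as high as SLCO1C1 in the 8 libraries that listed both above 0, with a median of 2.12.

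CRYM encodes mu-crystallin, a cytosolic protein that binds T3 and holds it inside the cell. Its gene spans bases 19547756 to 19569887 of chromosome 24. Its FPKM was 1.95, 2.16 and 3.07 at prepuberty, 5.24, 1.57 and 2.86 at puberty, and 2.26, 1.27 and 1.30 at postpuberty. Puberty 1 was far above the rest and Puberty 2 below every prepubertal library, and with all 9 libraries each pair of stages overlapped. Without Puberty 2, both pubertal libraries lay above the 3 postpubertal ones. The mean at postpuberty was then 1.61 FPKM against 4.05 at puberty, a difference of -0.93 in log2(FPKM + 1) with SE 0.29 and a 95% interval of -1.60 to -0.26. The unadjusted limma p was 0.013 and the adjusted p was 1, and the exact permutation test of 3 against 2 libraries gave p = 0.2, the smallest it can give. With Puberty 2 in the fit the difference was -0.62 (interval -1.42 to 0.18, limma adjusted p = 0.780). The difference also depended on Puberty 1, and leaving that library out instead gave -0.29. In the same comparison without Puberty 2 the median difference was -1.29 over 6 choroid plexus markers, -0.48 over 8 tanycyte and ependymal, -0.34 over 8 general neuron and -0.09 over 7 astrocyte markers, beside 0.03 over all genes. It was 0.08 over 8 endothelial, 0.13 over 10 hypothalamic neuron, 0.21 over 8 microglial, 0.37 over 8 oligodendrocyte and 0.68 over 4 pituitary markers. Of these markers DYNLRB2, FOXJ1, TMEM212, AGT and ABCB1 were then lower throughout at postpuberty than at puberty (6.08% of tested genes), and CNP, MAG, MOG, OPALIN and NES were higher throughout (7.93%). Of the 6 choroid plexus markers, KL and CLIC6 passed the level filter through their pubertal mean only, with 9.17 and 6.24 FPKM in Puberty 3. CGA, a pituitary marker, passed through its postpubertal mean only (1.91 FPKM). The hypothalamic neuron marker PMCH passed through puberty only, with 0.400 FPKM in Puberty 1 and 0.699 in Puberty 3. The microglial marker CD68 and LHX2 passed at prepuberty and postpuberty but not at puberty. The medians of -1.29, -0.48, 0.13, 0.21 and 0.68 thus include genes admitted by a stage in which they were high. With all 9 libraries the oligodendrocyte markers summed to 6418 to 14633 FPKM at prepuberty, 9578 to 11685 at puberty and 6655 to 14507 at postpuberty. The neuron markers summed to 692 to 1826, 427 to 1645 and 526 to 1962 FPKM. The part of these cell types in the CRYM difference, and in that of SLC16A10 between the same stages, was not tested. The difference of postpuberty from prepuberty was -0.38 (-1.18 to 0.41), and these stages overlapped. A lncRNA, LOC132658550, overlaps the locus, and its transcript did not exceed 0.0202 FPKM.

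DIO2 encodes the activating deiodinase, which converts T4 to T3 and is made in the brain by astrocytes and tanycytes. The gene was annotated on chromosome 7 at 89657112 to 89672330. Its FPKM was 1.59, 2.90 and 1.41 at prepuberty, 2.91, 2.27 and 0.948 at puberty, and 1.18, 2.70 and 0.815 at postpuberty. Each stage held high and low libraries, with 1 ewe at or above 2.70 FPKM in every stage and the 3 stages overlapping throughout. The stage means were 1.96 ± 0.81 (SD, n = 3), 2.04 ± 1.0 and 1.57 ± 1.0 FPKM. The difference of puberty from prepuberty was 0.01 in log2(FPKM + 1), with a 95% interval of -0.84 to 0.86, and without Puberty 2 it was -0.07 (-1.05 to 0.91). The intervals allow a change of nearly 1 on the log2 scale either way, so these libraries do not show that DIO2 stayed level. The 8 astrocyte markers summed to 3138 to 7592 FPKM at prepuberty, 4282 to 6527 at puberty and 3062 to 6431 at postpuberty, and which cells gave the DIO2 reads was not tested. A lncRNA, LOC105606533, overlaps the DIO2 locus by position, with a FPKM of 0.376 to 1.81, and how the counting treated strand is not given in the sources used here.

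DIO3 encodes the inactivating deiodinase and lies on chromosome 18 at 64125087 to 64125923 in a gene model of 837 bases, with 1 transcript, NM_001122650.1. Its FPKM was 0.207, 0.0526 and 0 at prepuberty, 0.0313, 0.101 and 0.117 at puberty, and 0.105, 0.124 and 0.103 at postpuberty. The highest and the lowest values were both prepubertal, and no pair of stages separated. DIO3 did not reach the level filter of 0.5 FPKM in any stage, and in a fit without the filter its difference of puberty from prepuberty was 0.00 in log2(FPKM + 1) (-0.15 to 0.15) with all libraries and -0.01 (-0.20 to 0.17) without Puberty 2, a scale that compresses changes at such low values. DIO2 exceeded DIO3 in every library. The ratio was 7.69 to 93.2 in the 7 libraries other than Puberty 2 that listed DIO3 above 0, with a median of 11.2, and 22.4 in Puberty 2. Prepuberty held the lowest ratio (Prepuberty 1) and one of 55.0 (Prepuberty 2), and the highest was that of Puberty 1.

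THRA encodes thyroid hormone receptor alpha, the main receptor of the brain. Chromosome 11 carries it at 40118214 to 40142929. Its FPKM was 8.78, 9.62 and 9.93 at prepuberty, 12.4, 22.4 and 9.82 at puberty, and 11.8, 10.1 and 9.23 at postpuberty. Apart from Puberty 2, the libraries lay within 8.78 to 12.4 FPKM, the narrowest relative range of the 8 genes, and the stages overlapped. The mean at puberty was 14.9 ± 6.63 FPKM (SD, n = 3) against 9.44 ± 0.60 at prepuberty, a difference of 0.53 in log2(FPKM + 1) (95% interval -0.16 to 1.21, limma adjusted p = 0.838). Without Puberty 2 the pubertal mean was 11.1 FPKM and the difference 0.21 (-0.19 to 0.61, limma adjusted p = 1). The difference of postpuberty from puberty went from -0.41 (-1.10 to 0.28) to -0.09 (-0.49 to 0.31) on leaving out that library. The mRNA FPKM of Puberty 2 summed to 377780, against 228754 to 260446 in the others. How much of its THRA value goes with that larger sum was not tested. The THRA model shares 811 bases with NR1D1, the gene of the clock repressor REV-ERB alpha. NR1D1 was lowest where THRA was highest, at 5.36 FPKM in Puberty 2, and in the other 8 libraries THRA was 0.664 to 2.003 times as high as NR1D1.

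THRB encodes thyroid hormone receptor beta, which mediates the feedback of T3 on TRH and thyrotropin. It lies on chromosome 26 at 41143703 to 41224206 and was measured through 1 transcript, NM_001190391.1. Its FPKM was 0.166, 0.514 and 0.0956 at prepuberty, 0.283, 0 and 0.912 at puberty, and 0.0974, 0.273 and 0.463 at postpuberty. The pubertal libraries held the highest value and the only 0, and no stages separated with or without Puberty 2. THRB passed the level filter only when Puberty 2 was left out, and then only through its pubertal mean (0.598 FPKM, against 0.259 at prepuberty and 0.278 at postpuberty), so a test there is of a gene admitted by the stage in which it was high. The difference of puberty from prepuberty is given from the fit without a filter, 0.11 in log2(FPKM + 1) with all libraries (95% interval -0.43 to 0.66) and 0.33 without Puberty 2 (-0.19 to 0.85, limma adjusted p = 1). THRA exceeded THRB in every library, by 10.8 to 121 times with a median of 40.5 in the 8 libraries that listed THRB above 0. The lowest ratio was that of Puberty 3 and the highest that of Postpuberty 1. Within stages, Puberty 2 left out, the ratio ran from 18.7 to 104 at prepuberty, 10.8 to 44.0 at puberty and 19.9 to 121 at postpuberty. It varied more there than THRA itself, at 8.78 to 9.93, 9.82 to 12.4 and 9.23 to 11.8 FPKM.

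TSHR encodes the receptor for thyrotropin and lies on chromosome 7 at 90438630 to 90610132, with 766299 bases between the end of DIO2 and its start. Its FPKM was 0, 0.0511 and 0 at prepuberty, 0.0815, 0 and 0.0261 at puberty, and 0, 0 and 0.0114 at postpuberty. It was listed at 0 in 5 of 9 libraries and was the lowest of the 8 genes on average. Without Puberty 2 both pubertal values lay above all postpubertal ones, all of them under 0.1 FPKM. Of the hormone that it binds, TSHB was listed at 0 in all libraries and CGA ranged from 0 to 2.92 FPKM. PRL, a marker of pituitary tissue, ranged from 0.0562 to 199.5 FPKM, and its highest values were in Postpuberty 1 (199.5), Puberty 3 (77.8) and Postpuberty 2 (74.4), in 2 of which TSHR was listed at 0.

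The stage comparison asked whether any of these genes differed between prepuberty, puberty and postpuberty. With all 9 libraries, limma on log2(FPKM + 1) over the 14238 genes that reached a mean of 0.5 FPKM in some stage called 0 genes in each of the 3 comparisons (0% of those tested) at an absolute log2 difference of 1 and an adjusted p below 0.05. Of the 8 genes, 5 entered that fit (DIO2, THRA, SLC16A10, CRYM and, through its postpubertal mean only, SLCO1C1), 0 were called and 0 had an unadjusted p below 0.05. Of all genes, 259 (1.82%) had such a p for puberty against prepuberty, 305 (2.14%) for postpuberty against puberty and 116 (0.815%) for postpuberty against prepuberty. Without Puberty 2 there were again 0 calls among 14209 genes, with 236 (1.66%), 300 (2.11%) and 265 (1.87%) at an unadjusted p below 0.05. Of the 6 genes then in the fit, 1 was among them, CRYM for postpuberty against puberty. The median difference over all genes was -0.14 for puberty against prepuberty and 0.19 for postpuberty against puberty, and 0.02 and 0.03 without Puberty 2. Puberty 2 itself held the highest THRA value and one of the lower CRYM values, and its part in their differences is given by the fits without it.

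**Figure D2:**
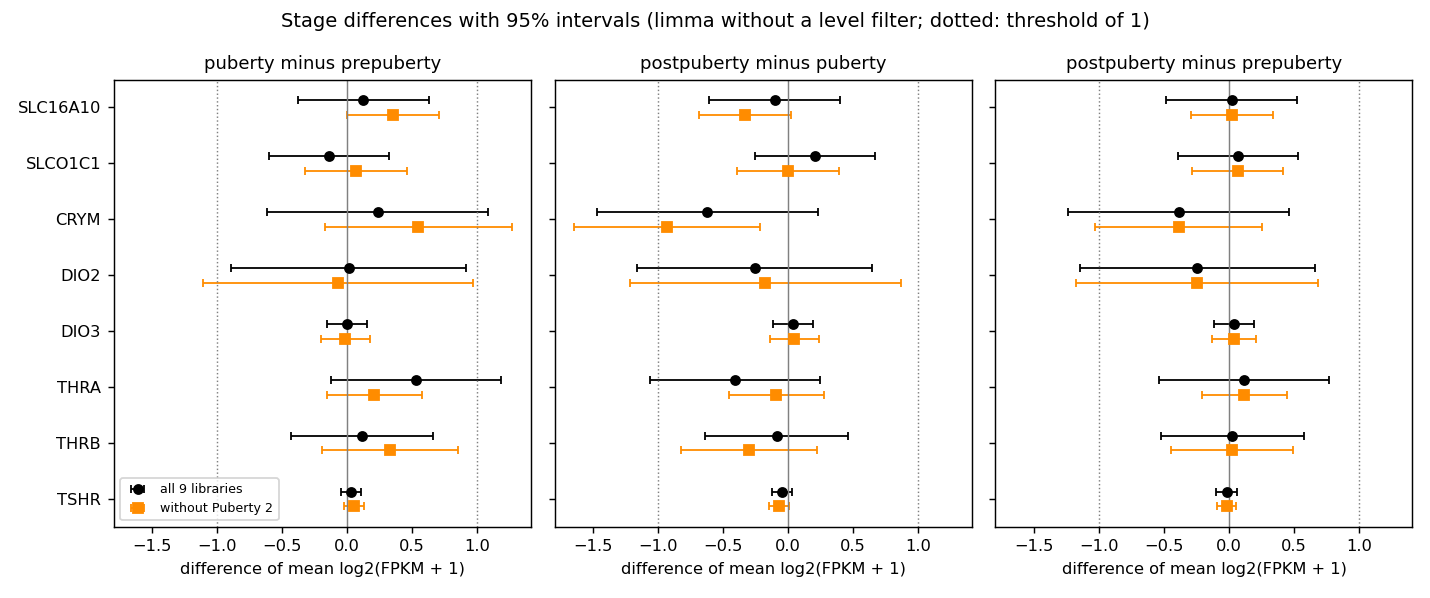
Differences of stage means in log2(FPKM + 1) for the 8 genes, 1 panel per comparison, with 95% intervals from limma fits that kept low genes. Circles are fits of all 9 libraries and squares fits without Puberty 2; of 24 intervals in each colour, those that leave out 0 are CRYM for postpuberty minus puberty (-0.93) and, barely, SLC16A10 for puberty minus prepuberty (0.35), both without Puberty 2 and both with an adjusted p of 1.

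Whether the libraries of 2 stages overlapped was read for all 8 genes. The shares of genes beside these counts are over the 14238 genes that passed the level filter, among them 5 of the 8. With all 9 libraries, 0 of 8 separated in any comparison, where 2.32% of tested genes were higher and 2.84% lower throughout at puberty than at prepuberty, 5.25% and 2.07% at postpuberty than at puberty, and 3.17% and 1.4% at postpuberty than at prepuberty. Without Puberty 2, 1 of the 8 (SLC16A10) was higher throughout at puberty than at prepuberty, as were 7.07% of tested genes, and 0 were lower (4.58% of tested genes). At postpuberty SLC16A10 and CRYM were lower throughout than at puberty, as were 6.08% of tested genes, and 0 were higher (7.93%). TSHR was lower throughout as well, but it did not pass the filter and has no such background. The exact permutation test gave p = 0.2 for each of them, its smallest value for 2 libraries against 3, and with 3 against 3 its smallest value is 0.1. The depth of the libraries is not in the FPKM values, so no counting interval is given.

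Several genes drew on more than one transcript, and the main transcript of some changed between libraries of the same stage. For DIO2 the sum over the 8 libraries other than Puberty 2 was 62.7% XM_060418680.1, 29.5% XM_060418679.1 and 7.75% XM_027972091.3. XM_060418680.1 led in 6 of the 9 libraries, including Puberty 2, where it was 100% of the gene. XM_060418679.1 was listed at 0 in 6 libraries but led in Puberty 1 (1.56 against 1.24 FPKM) and Postpuberty 2 (2.39 against 0.154 FPKM). XM_027972091.3 led in Prepuberty 3 with 0.619 FPKM. The high DIO2 value of Prepuberty 2 was 98.5% XM_060418680.1 and that of Postpuberty 2 was 88.5% XM_060418679.1, while Puberty 1 held 42.6% of the former and 53.6% of the latter.

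For CRYM, XM_027961527.3 led in all 9 libraries with 47.1% to 98.4% of the gene. XM_012104244.5 was listed at 0 in 6 libraries and reached 35.3% in Puberty 3 (1.01 FPKM) and 42.7% in Postpuberty 3 (0.555 FPKM). The high CRYM value of Puberty 1 was almost all XM_027961527.3 (5.15 FPKM). Taken alone, that transcript differed by -0.89 between postpuberty and puberty without Puberty 2 (95% interval -1.85 to 0.08, limma adjusted p = 1).

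SLCO1C1 was the most divided, over 7 transcripts. XM_060413333.1 held 51.0% of its sum over the 8 libraries and led in 5 of them. In Postpuberty 3 it was listed at 0 and XM_060413331.1 held 98.0%, while in Puberty 3 XM_060413329.1 led with 40.8% and 6 transcripts were above 0. THRA was at least 99.6% XM_027973954.2 in every library, and NM_001100919.3 did not exceed 0.0394 FPKM. Estimates for transcripts that share most exons divide the same reads, and no counts were at hand to give these shares an error. Across 27674 transcripts in limma with all 9 libraries, 0 were called in each comparison, with 858, 952 and 477 at an unadjusted p below 0.05. Without Puberty 2, 0 of 27243 were called, with 912, 947 and 864 at such a p.

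**Figure D3:**
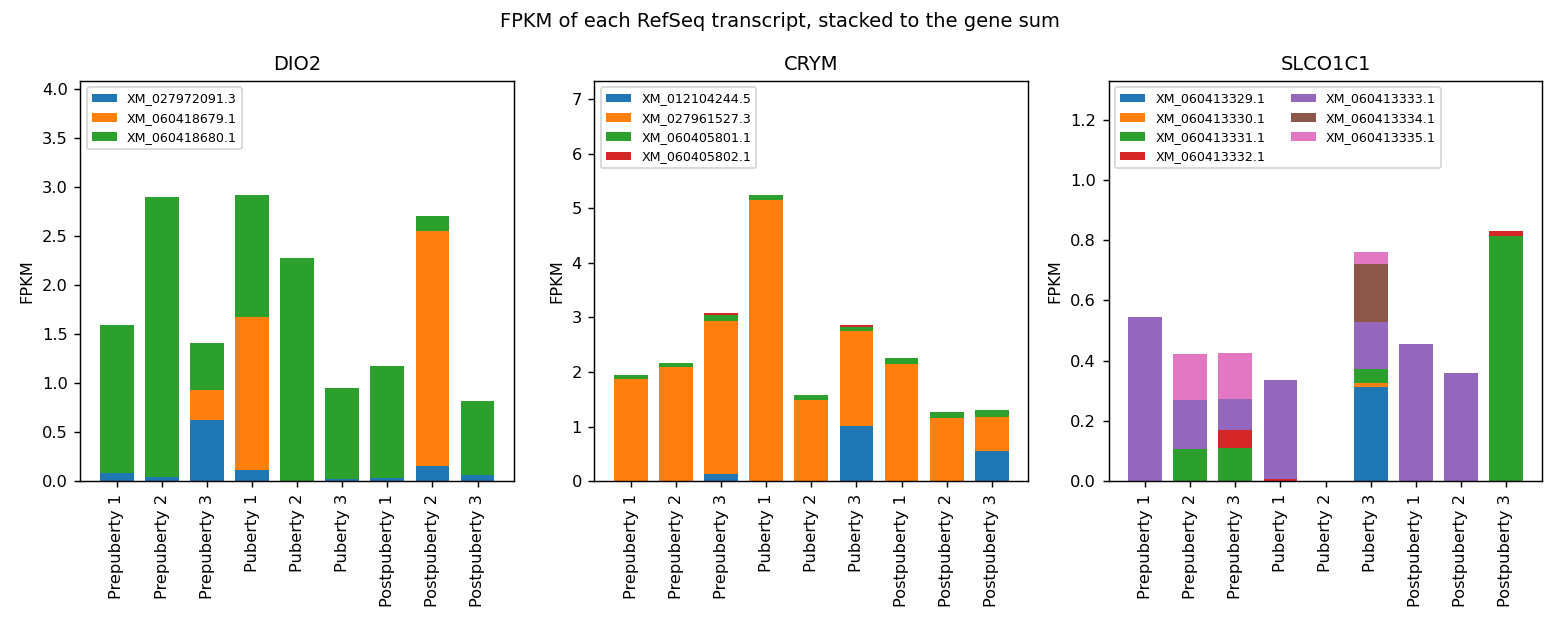
FPKM of each RefSeq transcript of DIO2, CRYM and SLCO1C1 in the 9 libraries, stacked from 0 to the gene sum, with 1 colour per transcript. The leading DIO2 transcript is XM_060418679.1 in Puberty 1 and Postpuberty 2 and XM_060418680.1 in 6 libraries, and SLCO1C1 has no bar in Puberty 2.

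The wider pathway was read from 5 lists, and limma called 0 of their genes in each comparison. In transport and binding, 11 of 11 listed genes were in the table and 8 were tested. SLC3A2 and SLC7A5, the chains of the LAT1 amino acid transporter that also takes up T3 and T4, were at 20.7 to 51.2 and 13.5 to 34.1 FPKM, each lowest in Puberty 2. TTR had the highest mean of the list and was the 1 gene with an unadjusted p below 0.05, for puberty against prepuberty (4.40 in log2(FPKM + 1), 95% interval 0.63 to 8.18, limma adjusted p = 0.838, and 4.85 without Puberty 2, adjusted p = 1). TTR is also the leading choroid plexus marker, and the part of that tissue in its difference was not tested. Of the plasma carriers, SERPINA7 was listed at 0 in all libraries and ALB ranged from 0 to 1.08 FPKM. The median difference of the 8 genes was -0.36 for puberty against prepuberty and 0.02 without Puberty 2, beside -0.14 and 0.02 over all genes.

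In deiodination and selenoprotein synthesis, 10 of 12 genes were tested and 0 had an unadjusted p below 0.05. The deiodinases hold selenocysteine at their active site. Apart from the deiodinase DIO1, the genes of this list supply selenium, insert it, or add ubiquitin to DIO2 protein or remove it. DIO1, the deiodinase of liver and kidney, was at 0.0618 to 0.20 FPKM, near the level of DIO3. SELENOP, the selenium carrier with the highest mean of the list, was at 122 to 229 FPKM in 8 libraries and at 1.59 in Puberty 2. SECISBP2, which reads the selenocysteine signal, was at 7.23 to 9.46 FPKM in 8 libraries and at 0.305 in Puberty 2, while USP20, which removes ubiquitin from DIO2, and WSB1, which adds it, were listed at 0 there. EEFSEC, the selenocysteine elongation factor, went the other way, at 33.7 FPKM in Puberty 2 against 7.07 to 14.6 FPKM.

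All 15 receptor partners in the table (of 16 listed) were tested. CREBBP, a coactivator, had an unadjusted p below 0.05 for puberty against prepuberty (-0.93, 95% interval -1.83 to -0.04, limma adjusted p = 0.838) and was lowest in Puberty 2 (2.12 FPKM) and Puberty 1 (3.43 FPKM), and without Puberty 2 its difference was -0.57 (-1.32 to 0.19). NCOR1, a corepressor, was higher throughout at postpuberty (13.2, 3.89 and 11.3 FPKM) than at prepuberty (3.10, 2.53 and 3.64 FPKM), with a difference of 1.22 (-0.35 to 2.79) and, without Puberty 2, an interval of 0.01 to 2.44 with an unadjusted p of 0.048 and a limma adjusted p of 1. It was the 1 pathway gene of 57 tested that separated so, beside 3.17% of all tested genes, and 0 were lower throughout (1.4%). For puberty against prepuberty PVALB was higher throughout (2.32% of tested genes) and ALB, a hormone carrier of the blood, lower (2.84%). ALB reached the level filter at prepuberty (0.597 FPKM) and postpuberty (0.712 FPKM) but not at puberty (0.0689 FPKM). It was admitted by the stages in which it was high, so that share is no background for it. Without Puberty 2, PVALB, SEMA7A, USP20 and PGPEP1 were higher throughout (7.07%) and ALB was lower (4.58%, with the same limit). For postpuberty against puberty SELENOP, TBL1XR1, HR and NR1D1 were higher (5.25%) and 0 of the 57 were lower (2.07%). Without Puberty 2, SELENOP, TBL1XR1, HR, NR1D1 and NRGN were higher throughout (7.93%). PSTK, USP20, SEMA7A and PGPEP1 were then lower throughout (6.08%), so the split no longer went 1 way. The retinoid X receptors split in Puberty 2, where RXRB was at 36.3 FPKM against 15.3 to 18.7 FPKM in the others and RXRA at 0.567 against 6.47 to 10.0 FPKM. THRAP3, with the highest mean of the list, was at 25.1 to 37.7 FPKM in 8 libraries and 5.56 in Puberty 2. The median difference was -0.47 for puberty against prepuberty and 0.70 for postpuberty against puberty, and 0.02 and 0.09 without Puberty 2.

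Genes known to respond to T3 in brain were all tested (16 of 16). PVALB had an unadjusted p below 0.05 for puberty against prepuberty (1.72, 95% interval 0.26 to 3.17, limma adjusted p = 0.838) and reached 147 FPKM in Puberty 2. It was the 1 gene of this list below 0.05, and without Puberty 2 its difference was 1.25 (-0.32 to 2.83). The median difference of the list was -0.37 for puberty against prepuberty and -0.16 without Puberty 2, beside -0.14 and 0.02 over all genes. The difference was negative for 14 of 16 genes (87.5%) beside 63.2% of all genes, and without Puberty 2 for 10 of 16 (62.5%) beside 44.7%. BCL11B, which is 1 of the 16, passed the filter through its prepubertal mean only (0.663 FPKM). KLF9, a direct target of the receptors, was at 10.4 to 33.9 FPKM, and MBP of myelin, with the highest mean of the list, at 1112 to 7824 FPKM. HR, another direct target, was at 3.98 to 7.83 FPKM in 8 libraries and 0.0210 in Puberty 2. Of the TRH and thyrotropin axis, 12 of 13 listed genes were in the table and 8 were tested. TRH, which releases thyrotropin, ranged from 0.824 to 36.8 FPKM with its lowest value in Prepuberty 2 and its highest in Postpuberty 3. GNAS, which encodes the G protein that couples TSHR to cyclic AMP and had the highest mean of the list, was at 373 to 1015 FPKM. CGA was at 0.0665, 0 and 0.423 FPKM at prepuberty, 0, 0 and 1.25 at puberty and 2.92, 2.47 and 0.332 at postpuberty, and the last stage overlapped with each of the others. It passed the level filter through its postpubertal mean only (1.91 FPKM, against 0.163 and 0.415), so only its levels are given and no test of it is reported. CGA is also a pituitary marker, and the 11 markers of that list summed to 1.18 to 31.0 FPKM at prepuberty, 0.857 to 89.8 at puberty and 14.4 to 216 at postpuberty, with TSHB at 0 throughout. The part of pituitary tissue in the CGA values was not tested.

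**Figure D4:**
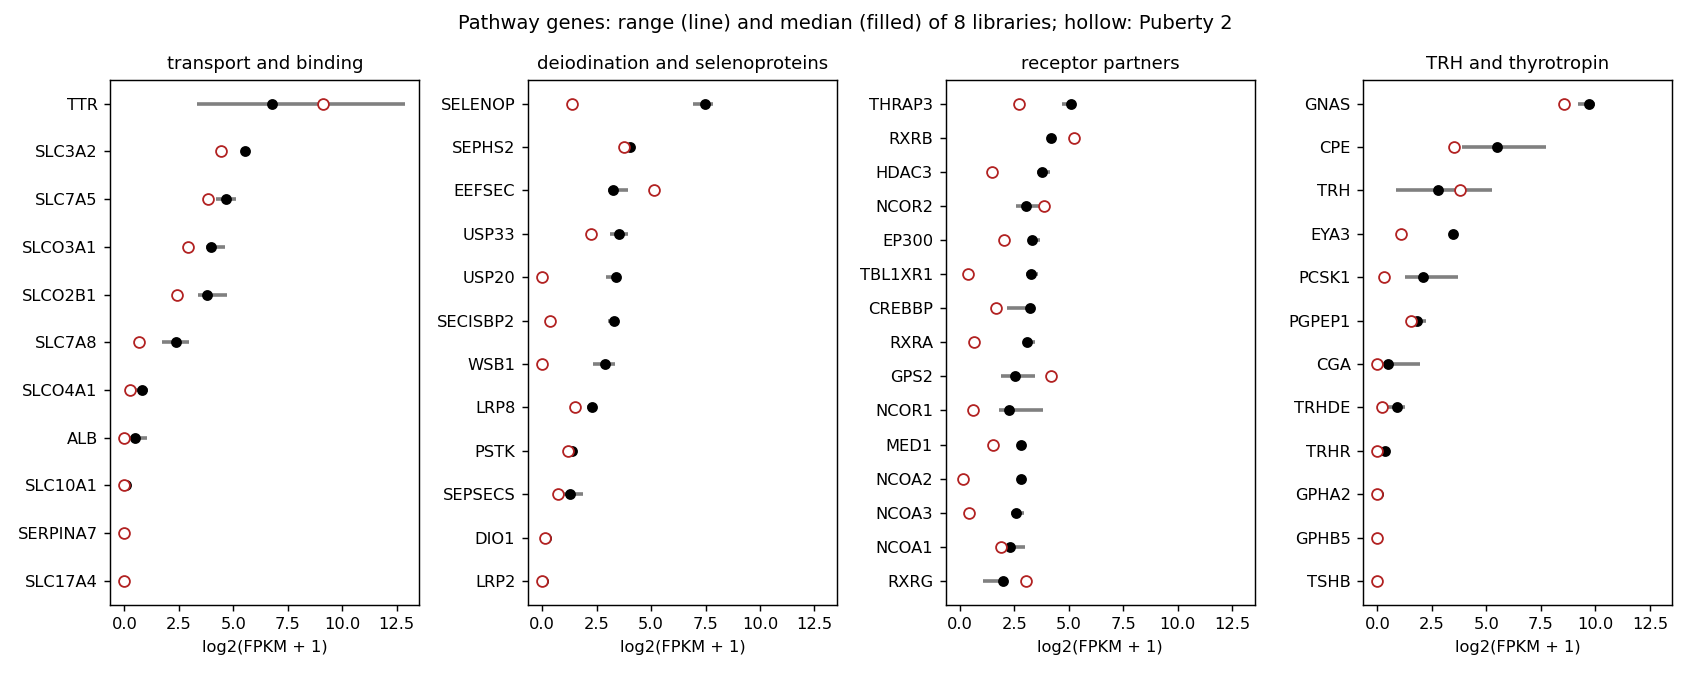
Levels in log2(FPKM + 1) of the genes in 4 pathway lists, 1 row per gene ordered by mean FPKM. Lines span the 8 libraries other than Puberty 2, filled points are their medians and hollow points are Puberty 2, which lies far below the others for SELENOP (1.59 FPKM), USP20, WSB1 and RXRA and above them for EEFSEC and RXRB; the widest line is that of TTR.

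The libraries in which the 8 genes were high fell into a few patterns. Puberty 1 held the highest value of DIO2, CRYM and TSHR, and of THRA apart from Puberty 2. Puberty 3 held the highest value of SLC16A10 and THRB and the next to highest of SLCO1C1, with DIO2 near its lowest there. For each gene the 2 genes with the most similar log2(FPKM + 1) over the 8 libraries were sought among 12281 genes with a mean of at least 1 FPKM. They were CDC42BPA (Pearson r = 0.971) and LOC101114249 (0.957) for DIO2, TBC1D15 (0.980) and TTF2 (0.944) for DIO3, and OLAH (0.928) and PYROXD2 (0.895) for THRA. For THRB they were BUB3 (0.966) and FLYWCH1 (0.956), for SLC16A10 LRBA (0.958) and DRC1 (0.941), and for SLCO1C1 PTK2B (0.969) and CDKN1A (0.940). For CRYM they were LOC114117878 (0.900) and CLK4 (0.889), and for TSHR CAPRIN2 (0.936) and PLA2G7 (0.932). The r values are the highest of 12281 over 8 points and are a description. Without the 2 libraries farthest from the median of the gene, r was 0.29 for PYROXD2 with THRA. For CRYM it was then 0.65 with LOC114117878 and 0.75 with CLK4, and the other pairs kept at least 0.825. TSHR did not exceed 0.0815 FPKM and DIO3 0.207, so their r values rest on differences near 0.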

How the data were processed

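RNA selected with poly-T beads from the hypothalamus of 9 ewes was sequenced by the authors, who trimmed reads with Trimmomatic (0.32 in the submitters' processing notes), aligned them with HISAT2 (genome build ARS-UI_Ramb_v3.0) and used StringTie to assemble and quantify transcripts. The deposited values are FPKM per transcript, as the authors computed them, although the table is described as raw counts. They are not whole numbers and give no depth per library, and the authors' test on counts could not be run. The study reports differentially expressed mRNAs from its own analysis. The 0 calls given here come from another test on other values and were not compared with that list.

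RefSeq symbols were found for 76682 of 76684 mRNA rows, FPKM was summed over the 21284 genes, and 22600 assembled rows without a RefSeq identifier were left out, so reads given to them are not in the sums. Stages come from the labels and ages from the study's methods. Genes with a mean of at least 0.5 FPKM in at least 1 stage were tested with limma (log2(FPKM + 1), variance trend, all 9 libraries, Benjamini-Hochberg over all genes tested). A call needed an absolute log2 difference of at least 1 and an adjusted p below 0.05. Single genes were also compared by an exact two-sided permutation test. The fit was tested on simulated data.

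All 8 genes are named whatever they show. Of the other lists, those named have the highest means, or an unadjusted p below 0.05, or were chosen after their values were seen (for their level in Puberty 2 or their role). The genes and lists were chosen with earlier results of these data known. One listed gene is not reported here and was taken out of its lists. Alternatives covered libraries, replicate block, pseudocount, filter, scaling, weights and transcripts. Leaving out Puberty 2 in the levels and in the fit without a filter was added after seeing the data. Python 3.11.15 (pandas 2.3.3, numpy 2.4.6, scipy 1.17.1, matplotlib 3.10.9) and R 4.3.3 (limma 3.58.1) were used.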

Additional observations from a re-analysis of the deposited data

How the results depend on the processing

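Over 24 stage differences of the 8 genes and 288 alternatives, 271 kept the direction and the side of the threshold. Another 17 changed sign, in 6 of the 24 differences, all of them with an adjusted p far above 0.05. Many alternatives could not change a direction. The replicate block, robust moderation and dropping the filter leave the difference itself as it was, and so does leaving out a library of the third stage. For SLC16A10 the main transcript is the whole gene. The 271 are therefore no measure of stability. For DIO2, puberty minus prepuberty (0.01) became -0.0095 with a pseudocount of 0.1, -0.13 with equal totals, -0.0035 for the main transcript alone and -0.069 without a filter and without Puberty 2, and ran from -0.20 to 0.30 on leaving out 1 library at a time. For SLC16A10, postpuberty minus prepuberty (0.02) became -0.020 with quantile normalization. On leaving out 1 library it ran from -0.033 to 0.078, puberty minus prepuberty from -0.060 to 0.35, and postpuberty minus puberty from -0.33 to 0.083, the sign of the last 2 turning without Puberty 3. For SLCO1C1, puberty minus prepuberty (-0.14) became 0.043 with array weights and 0.067 without a filter and without Puberty 2, and ran from -0.34 to 0.067 on leaving out 1 library. With a pseudocount of 0.1, which widens the gap to the 0 of Puberty 2, it was -0.75, and postpuberty minus puberty (0.21) was 0.89. For CRYM, puberty minus prepuberty (0.24) ran from -0.093 (without Puberty 1) to 0.55. The directions of THRA in all 3 comparisons, and of CRYM and DIO2 at postpuberty, held under every alternative run, scalings included.

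No call was made among the 8 genes in the settings that tested them, out of 19, the lowest adjusted p being 0.369. DIO3 and TSHR were tested in 2 settings (those without a filter) and THRB in 3. An unadjusted p below 0.05 appeared for CRYM, postpuberty minus puberty, without Puberty 2 (0.013), with quantile normalization (0.011) and with array weights (0.0039), for CRYM, postpuberty minus prepuberty, with array weights (0.018), for SLC16A10, puberty minus prepuberty, with array weights (0.013) and without a filter and without Puberty 2 (0.0498), and for THRA, puberty minus prepuberty, without Puberty 3 (0.038). Of all genes, array weights, which gave Puberty 2 a weight of 0.0653, called 4 for puberty minus prepuberty and 1 for postpuberty minus puberty. All other settings called 0. The replicate block also called 0 in each comparison. Its numbers do not stand for repeated animals, as each ewe gave 1 library. Residuals of same-numbered libraries correlated from -0.315 to 0.515 over 9 pairs, 2 of them above 0.1. Those of different number ran from -0.561 to 0.308 over 18 pairs, 5 of them above 0.1. Of the 9 libraries, 3 correlated best with their own number. These correlations cannot show whether libraries of the same number shared a processing step. The median of the receptor partners, postpuberty minus puberty (0.70), was 0.087 without Puberty 2 and 1.23 without Puberty 3.

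With 3 ewes a stage and no read counts, the 95% intervals with all libraries reached -1.11 for DIO2, -1.42 for CRYM and 1.21 for THRA on the log2 scale. At the FPKM of DIO3 and TSHR, 0.207 or less, log2(FPKM + 1) stays near 0 whatever the ratio between stages.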
